A study of Mus musculus with 8 samples.

Results

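Copying the genome once per division needs a set of proteins that cells make mostly around the G1/S transition, when E2F transcription factors switch on their genes. Origins are first licensed by ORC, Cdc6 and Cdt1, which load the MCM helicase. Cdc45 and GINS then activate it, polymerases and the sliding clamp copy the DNA, and enzymes of deoxynucleotide synthesis supply the building blocks. In the thymus most division happens before the CD4 single-positive stage, and CD4 single-positive thymocytes are largely resting. A list of 40 mouse genes of this machinery is described here, chosen by gene symbol from 21150 named genes on the array. It holds 14 genes of licensing and helicase activation, 7 of polymerases and primase, 8 of the clamp, its loader, RPA and Okazaki fragment joining, 5 of deoxynucleotide supply, 3 G1/S regulators and 3 of chromatin assembly and histone mRNA.

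RNA of freshly sorted mouse CD4 single-positive thymocytes, lysed without culture, was hybridised to 8 one-colour arrays, 2 biological replicates of each of 4 populations. The population labelled Nr4a-TKO preTreg, a knockout of Nr4a nuclear receptors by its label, was a precursor of regulatory T cells (Treg) gated on CD25-high, GITR-high and Nr4a3-high. The population labelled Foxp3-KO preTreg, by its label a knockout of Foxp3, the lineage factor of Treg, was gated on CD25-high and a Foxp3 reporter. WT Treg were wild-type Foxp3+ cells, and WT Tconv were conventional T cells of wild-type mice gated on CD25-low. The labels used here do not give the Nr4a alleles, any Cre driver, the ages of the mice or whether animals were pooled. No wild-type precursor was measured, so genotype and sort gate cannot be told apart in a comparison of a precursor with a wild-type group. P-values measure the spread between the samples called biological replicates.

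Levels below are log2 intensity relative to the 75th percentile of the array, so that 0 is that percentile, and levels of different genes are not compared with each other. A difference was called at an adjusted p below 0.05 in limma, with Benjamini-Hochberg adjustment over the 13494 genes tested. The 75th percentile lay 8.90 to 10.4 times above local background and replicates correlated at r = 0.976 to 0.997 across the genes tested, which are not independent replicates. All 8 CD4 T cell markers were above background on every array. The level of Foxp3 was lower in Foxp3-KO than in WT Treg by 3.02 ± 0.23 (log2, SE), yet higher than in WT Tconv by 5.44 ± 0.23. In Nr4a-TKO the Foxp3 difference was 7.103 ± 0.228 against WT Tconv and -1.355 ± 0.228 against WT Treg, both called. In Nr4a-TKO against WT Treg, Nr4a2 was higher by 2.08 ± 0.20, while Nr4a1 (0.38 ± 0.19) and Nr4a3 (-0.62 ± 0.46) were not called. Nr4a1 (0.99 ± 0.19) and Nr4a2 (5.31 ± 0.20) were called higher in Nr4a-TKO than in WT Tconv, while Nr4a3 was not called there. The labels do not say which exons were deleted, so none of these probes checks a genotype. The slide held Nr4a-TKO and WT Tconv in row 1, with the remaining populations in row 2. Row and population therefore cannot be told apart in the 4 comparisons across rows. Within a row each population had its own columns, so slide position and population cannot be told apart in any of the 6 comparisons.

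Of the 40 genes, 39 passed the filter on dim probes, and 38 were well above background on all 8 arrays. The exceptions were Ccne2, the second E-type cyclin, which was not well above background on any array and was not tested, and Orc1, which was not well above background on either WT Treg array. E2F motifs near the start of transcription were searched in these genes. The genes were not chosen by motif. They were chosen as genes of replication and G1/S, which E2F switches on, so a raised share is not independent of the choice. RefSeq windows (GRCm38.p6, 250 bases before to 50 after the start) were at hand for 33 of the 40. The E2F 8-mers searched on both strands were TTTCCCGC, TTTCGCGC, TTTGCCGC and TTTGGCGC. Of the 33 genes, 13 (39.4%) held at least 1 of them, against 704 of 27025 genes with a window (2.6%) and 474 of 10792 genes tested on the arrays (4.39%). The CCAAT pentamer, searched on both strands, was in 18 of the 33 (54.5%), against 41.1% of all genes and 42.6% of those tested. The 8-mers stood in 8 licensing and helicase genes, 3 polymerase genes, Rfc3 and Lig1. None of the windows of the 5 nucleotide supply genes, of Ccne1 and E2f1, or of the 3 chromatin genes held one, which says only that these letters are not in those windows.

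For 3 roles, the window of the gene with an 8-mer and the largest fitted difference between WT Treg and WT Tconv is printed here, with the 8-mer in capitals. The fitted difference of Orc1 rests on WT Treg values not above background, so its rank over Cdc6, which also holds an 8-mer, is not established. Orc1, the largest subunit of the origin recognition complex, lies on the plus strand at chr4:108579204-108579503. Pole2, a subunit of the leading-strand polymerase, lies on the minus strand at chr12:69228141-69228440. Lig1, the ligase that joins Okazaki fragments, lies on the plus strand at chr7:13278576-13278875 and is 1 of 3 windows of that gene.
Orc1: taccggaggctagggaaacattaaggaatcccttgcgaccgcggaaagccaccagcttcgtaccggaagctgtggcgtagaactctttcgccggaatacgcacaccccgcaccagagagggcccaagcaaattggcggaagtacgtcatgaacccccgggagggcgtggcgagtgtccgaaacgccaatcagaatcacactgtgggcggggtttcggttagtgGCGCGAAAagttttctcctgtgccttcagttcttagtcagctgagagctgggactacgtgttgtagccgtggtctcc
Pole2: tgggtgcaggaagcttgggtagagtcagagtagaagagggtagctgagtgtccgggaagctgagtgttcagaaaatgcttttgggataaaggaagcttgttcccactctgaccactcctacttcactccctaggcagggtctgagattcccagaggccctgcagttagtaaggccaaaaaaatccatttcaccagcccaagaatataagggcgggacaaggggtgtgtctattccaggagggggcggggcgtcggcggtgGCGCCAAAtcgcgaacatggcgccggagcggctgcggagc
Lig1: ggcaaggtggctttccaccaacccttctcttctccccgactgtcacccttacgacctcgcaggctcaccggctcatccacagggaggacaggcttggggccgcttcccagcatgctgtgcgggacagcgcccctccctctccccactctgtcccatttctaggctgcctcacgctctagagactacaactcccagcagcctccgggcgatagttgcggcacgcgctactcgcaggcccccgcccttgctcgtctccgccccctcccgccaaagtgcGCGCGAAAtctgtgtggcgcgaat

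Shorter stretches around the 8-mers of 4 subunits of the MCM helicase and of Gins3, a GINS subunit, are given to set genes of unlike behaviour side by side; these 5 were chosen after their values were seen. In Mcm5 (chr8:75109347-75109376, plus strand) and Mcm6 (chr1:128359795-128359824, minus strand) the capitals cover 8-mers on both strands that overlap each other. The stretches of Mcm3 (chr1:20820277-20820302), Mcm7 (chr5:138172032-138172057) and Gins3 (chr8:95633509-95633534) lie on the minus, minus and plus strand. Mcm3, Mcm6 and Mcm7 each hold a further 8-mer outside the stretch shown.
Mcm3: acttccgtgGCGGGAAAacttgggaa
Mcm5: gccaagaacTTTCGCGCCAAAacgtccagc
Mcm6: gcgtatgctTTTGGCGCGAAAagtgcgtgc
Mcm7: tttcgaaccGCGGGAAAcagggtgtc
Gins3: gagtgcggcGCGGGAAAgcgagtttg

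Most of the 39 genes were lowest in WT Treg, intermediate in Foxp3-KO preTreg and high in both Nr4a-TKO preTreg and WT Tconv. The median level of the 39 genes was 2.77 and 2.90 on the Nr4a-TKO arrays, 2.23 and 2.27 on the Foxp3-KO arrays, 1.91 and 1.85 on the WT Treg arrays and 2.68 and 2.72 on the WT Tconv arrays. The 4 groups did not overlap in this median, although those of Nr4a-TKO and WT Tconv lay close together. Nr4a-TKO and WT Tconv were also the populations in row 1 of the slide. The median over all genes tested stayed between 0.75 and 0.85 on the 8 arrays. For 34 of the 39 genes both WT Treg arrays lay below the other 6, which held for 11.1% of all genes tested. The mean order WT Treg below Foxp3-KO below both other groups was found for 35 of the 39, against 12.8% of all genes tested. The genes outside that order were Gins3, Tk1, Chaf1b and Slbp. WT Treg was the lowest group for 37 genes, against 22.4% of all genes tested, and the highest group was Nr4a-TKO for 22 and WT Tconv for 17, against 28.6% and 41.4% of all genes tested. RNA from a bulk population does not tell fewer cycling cells from less RNA per cell.

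**Figure D1:**
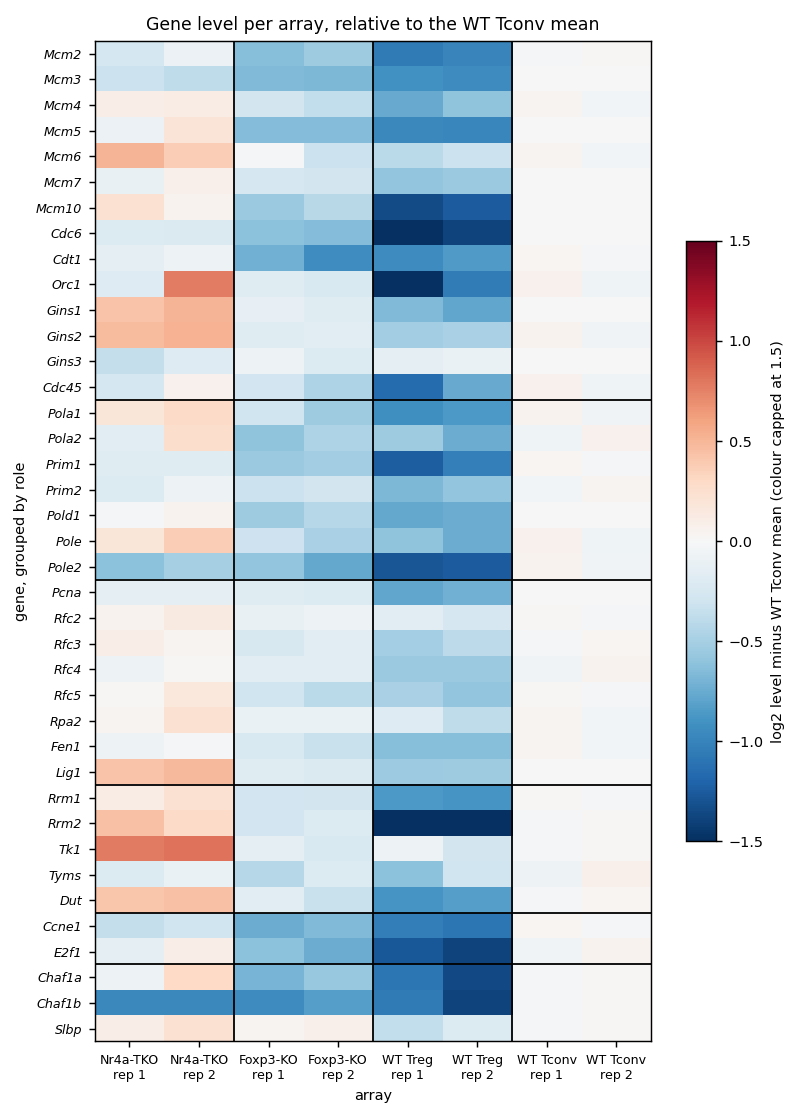
Level of each of the 39 tested genes (rows, grouped by role from licensing at the top to chromatin at the bottom) on each of the 8 arrays (columns), as the log2 level minus the mean of the 2 WT Tconv arrays. Blue is lower and red is higher, with the colour capped at 1.5; the WT Treg columns are the bluest, and Tk1 is the reddest row in Nr4a-TKO. The WT Treg values of Orc1 were not well above background.

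In WT Treg against WT Tconv, 32 of 39 genes fell and 0 rose (37 and 0 at an unadjusted p below 0.05), where 20.9% of all genes tested were called lower and 13.8% higher. The median difference of the 39 was -0.75 on the log2 scale, against -0.08 for all genes tested, and setting Orc1 at its bound leaves that median as it is. The other 7 genes, Mcm6, Gins3, Rfc2, Rpa2, Tk1, Tyms and Slbp, had differences of -0.12 to -0.46 and were not called. By role the median was -0.91 for licensing and helicase, -0.76 for polymerases, -0.54 for the clamp and Okazaki group and -0.85 for nucleotide supply. With each array left out in turn, 24 of the 32 calls held every time. Among genes with a promoter window the median was -0.89 for the 13 with an E2F 8-mer and -0.86 for the 20 without.

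Foxp3-KO preTreg lay between the wild-type groups. Against WT Tconv 19 genes fell and 0 rose (27 and 0 at an unadjusted p below 0.05), against backgrounds of 14.8% lower and 10.3% higher, and the median difference was -0.32 against -0.11 for all genes. Only 2 genes were called lower without WT Tconv replicate 1, and 2 without WT Tconv replicate 2; the count was 12 without Foxp3-KO replicate 2 or either WT Treg array. Mcm3 and Ccne1 kept their call with each array left out. Against WT Treg 14 genes rose and 0 fell (29 and 0 at an unadjusted p below 0.05), where 3.33% of all genes were called higher and 3.12% called lower, and the median difference was 0.35 against -0.01. That count was 2 without either WT Tconv array or either WT Treg array, 8 without either Nr4a-TKO array and 9 without either Foxp3-KO array. Cdc6 and Rrm2 kept their call each time. Both calls were made for 8 genes, Mcm2, Mcm10, Cdc6, Prim1, Pole2, Rrm1, Ccne1 and E2f1. No gene of these 8 kept both calls with each array left out. The share of all genes tested with both calls was not counted.

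Nr4a-TKO preTreg had higher levels of most of these genes than WT Treg. Against WT Treg 36 of 39 rose and 0 fell (36 and 0 at an unadjusted p below 0.05), against backgrounds of 18.5% higher and 16.4% lower, while 29 of the 36 calls held with each array left out in turn. The median difference was 0.79, against -0.01 for all genes. Against Foxp3-KO 25 rose and 0 fell (28 and 0 at an unadjusted p below 0.05), against backgrounds of 17.8% higher and 15.6% lower, with a median of 0.42 against 0.01. This count was 16 without Nr4a-TKO replicate 2, and 14 calls held with each array left out.

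Against WT Tconv, Nr4a-TKO showed 7 genes higher and 5 lower (7 and 6 at an unadjusted p below 0.05), where 21.1% of all genes tested were called higher and 27.6% lower. The median difference was 0.05, against -0.11 for all genes, and it was -0.08 without Nr4a-TKO replicate 2. The 95% confidence interval of the difference lay within 1 log2 unit of 0 for 36 of the 39 genes. That band is wider than the median difference of -0.75 in WT Treg against WT Tconv, so the count does not show equal levels. The 7 higher genes were Mcm6, Gins1, Gins2, Lig1, Rrm2, Tk1 and Dut, and these were also called higher than in Foxp3-KO and in WT Treg. The share of all genes tested with all of these calls was not counted, so the set is not shown to exceed it. The 5 lower genes were Mcm3, Gins3, Pole2, Ccne1 and Chaf1b. The 7 became 4 without either WT Tconv array, and the 5 became 1 without WT Tconv replicate 1, 2 without WT Tconv replicate 2 and 3 without Nr4a-TKO replicate 1. Gins1, Gins2, Lig1, Tk1 and Chaf1b kept their call with each array left out.

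**Figure D2:**
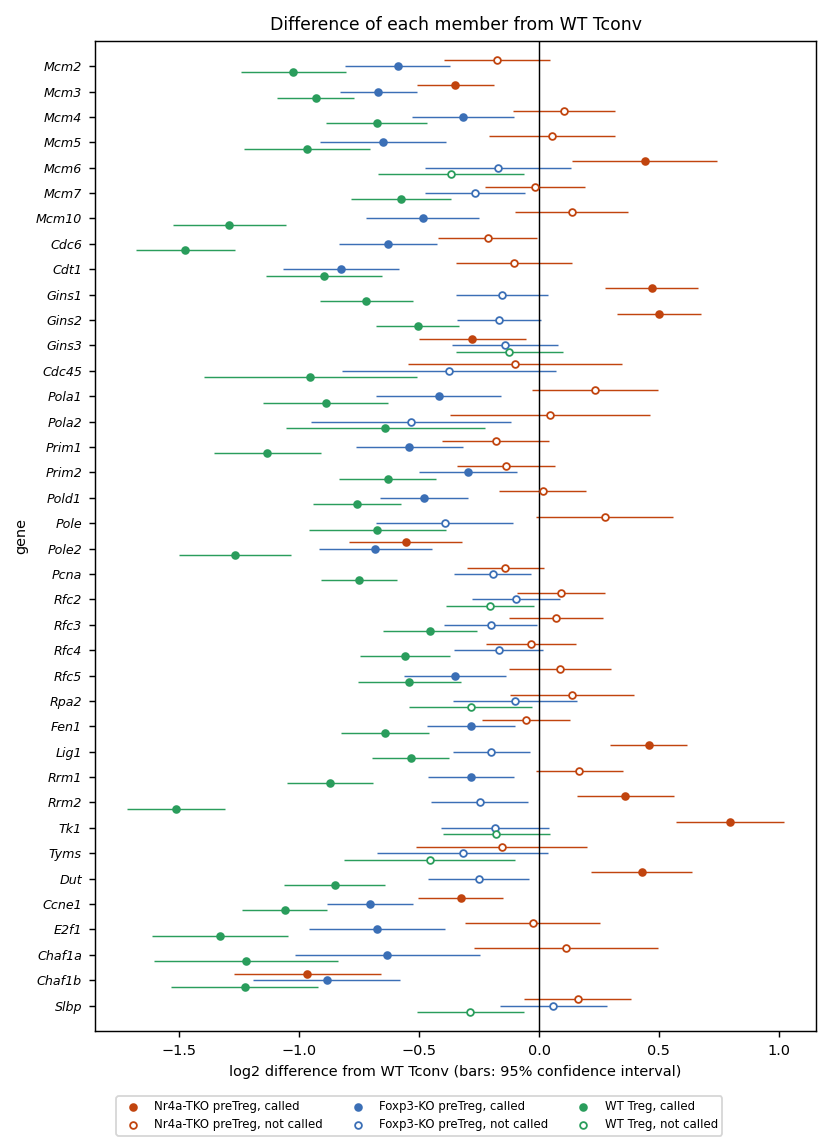
Difference from WT Tconv (x axis, log2) of 38 genes in Nr4a-TKO preTreg, Foxp3-KO preTreg and WT Treg, with bars for the 95% confidence interval; filled points were called at an adjusted p below 0.05 and Orc1 is left out. WT Treg points lie farthest left for most genes, Nr4a-TKO points lie on both sides of 0, and Chaf1b is the gene with all 3 groups far to the left.

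Among licensing genes, Cdc6, the loader ATPase that brings MCM to ORC, had levels of -0.46 and -0.48 in Nr4a-TKO, -0.87 and -0.90 in Foxp3-KO, -1.82 and -1.64 in WT Treg and -0.25 and -0.26 in WT Tconv. On its brighter probe the 4 groups stood apart without overlap, WT Treg lowest. Its difference was -1.47 ± 0.08 (SE) in WT Treg against WT Tconv (adjusted p = 0.000397), a 2.78-fold lower level, and -0.63 ± 0.08 in Foxp3-KO against WT Tconv (adjusted p = 0.00834), a call lost without either WT Tconv array. In Nr4a-TKO against WT Tconv it was -0.21 ± 0.08 and not called. A second Cdc6 probe gave -1.49 ± 0.17 in WT Treg and -0.30 ± 0.17 in Foxp3-KO against WT Tconv, of which the Foxp3-KO value was not called. It gave -0.31 ± 0.17 in Nr4a-TKO against WT Tconv, not called. Nr4a-TKO and Foxp3-KO differed by -0.01 ± 0.17 on it (adjusted p = 0.982), so it did not separate the 2 precursors.

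Orc1 was above background on 6 arrays, at -3.22 and -2.27 in Nr4a-TKO, -3.21 and -3.26 in Foxp3-KO and -2.97 and -3.09 in WT Tconv. The 2 Nr4a-TKO replicates lay nearly 1 unit apart, and the 3 groups were not separated. Measured against the lowest signal well above background, Orc1 was at least 2.91-fold higher in Nr4a-TKO (adjusted p = 0.0315) and at least 2.07-fold higher in Foxp3-KO (not called) than in WT Treg, and at least 2.39-fold lower in WT Treg than in WT Tconv (adjusted p = 0.0479). The Nr4a-TKO call was lost without any 1 of the WT Tconv and Nr4a-TKO arrays or WT Treg replicate 1, and the call against WT Tconv without any 1 array other than WT Treg replicate 2.

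Cdt1, the licensing factor that geminin restrains, and Mcm10, which helps the helicase start, are set side by side for their levels in Foxp3-KO. Cdt1 stood at 4.14 and 4.20 in Nr4a-TKO, 3.56 and 3.34 in Foxp3-KO, 3.34 and 3.43 in WT Treg and 4.31 and 4.24 in WT Tconv, so that Foxp3-KO and WT Treg overlapped. Mcm10 stood at 2.01 and 1.84 in Nr4a-TKO, 1.24 and 1.37 in Foxp3-KO, 0.45 and 0.54 in WT Treg and 1.78 and 1.80 in WT Tconv, with Foxp3-KO about midway. Foxp3-KO differed from WT Treg by 0.07 ± 0.10 in Cdt1 (adjusted p = 0.693) and by 0.81 ± 0.09 in Mcm10 (adjusted p = 0.0141), the second call being lost without either WT Tconv or either WT Treg array. Whether the 2 genes differed from each other in this contrast was not tested.

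The 6 subunits of the MCM2-7 ring were not called in the same comparisons. Mcm3 had levels of 4.42 and 4.36 in Nr4a-TKO, 4.07 and 4.06 in Foxp3-KO, 3.83 and 3.79 in WT Treg and 4.73 and 4.75 in WT Tconv, 4 separate pairs with WT Tconv on top. It was lower than WT Tconv in Nr4a-TKO by 0.35 on the log2 scale (-0.35 ± 0.06, adjusted p = 0.00893, lost without either WT Tconv array), in Foxp3-KO (-0.67 ± 0.06, adjusted p = 0.00348) and in WT Treg (-0.93 ± 0.06, adjusted p = 0.000688). Mcm6 went the other way in Nr4a-TKO, with 6.57 and 6.43 there, 6.04 and 5.74 in Foxp3-KO, 5.65 and 5.73 in WT Treg and 6.10 and 6.02 in WT Tconv. Its Nr4a-TKO arrays were the highest of the 8, and the difference from WT Tconv was 0.44 ± 0.12 (adjusted p = 0.0305), a call lost without any 1 of the Nr4a-TKO, WT Treg or WT Tconv arrays. In WT Treg against WT Tconv, Mcm2, Mcm4, Mcm5 and Mcm7 fell by 1.02, 0.68, 0.97 and 0.57, and Mcm6 had -0.37 ± 0.12 (adjusted p = 0.0652). The Mcm7 call was lost without WT Tconv replicate 2.

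GINS is a complex of 4 subunits, of which 3 were on the list, and 2 of these were called higher in Nr4a-TKO than in WT Tconv. The remaining subunit, Gins4, measured outside the list, was lower, at 1.55 and 1.79 in Nr4a-TKO and 1.82 and 1.83 in WT Tconv. Gins1 had levels of 1.48 and 1.57 in Nr4a-TKO, 0.93 and 0.87 in Foxp3-KO, 0.40 and 0.27 in WT Treg and 1.06 and 1.05 in WT Tconv, with Nr4a-TKO highest and WT Treg lowest and no overlap. Gins2 had the same order, and Nr4a-TKO exceeded WT Tconv by 0.47 ± 0.08 in Gins1 (adjusted p = 0.00639) and by 0.50 ± 0.07 in Gins2 (adjusted p = 0.00387). Gins3 was nearly level, at 5.12 and 5.29 in Nr4a-TKO, 5.40 and 5.28 in Foxp3-KO, 5.33 and 5.39 in WT Treg and 5.47 and 5.49 in WT Tconv. The precursor and WT Treg values ran together just under WT Tconv, and its only call was -0.28 ± 0.09 in Nr4a-TKO against WT Tconv (adjusted p = 0.0471), lost without Nr4a-TKO replicate 1 or any 1 of the WT Treg and WT Tconv arrays.

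All 7 polymerase and primase genes fell in WT Treg against WT Tconv and rose in Nr4a-TKO against WT Treg. Not every call held with each array left out: Pola2 and Pole lost the first, and Pola2 and Prim2 the second. Pole2 had levels of 0.10 and 0.21 in Nr4a-TKO, 0.12 and -0.06 in Foxp3-KO, -0.57 and -0.53 in WT Treg and 0.77 and 0.66 in WT Tconv. The 2 precursor groups overlapped each other and lay between the wild-type groups. Pole2 fell in WT Treg (-1.27 ± 0.09, adjusted p = 0.000798), Foxp3-KO (-0.68 ± 0.09, adjusted p = 0.00912) and Nr4a-TKO (-0.56 ± 0.09, adjusted p = 0.00685) against WT Tconv. The Nr4a-TKO call was lost without WT Tconv replicate 1, and the Foxp3-KO call without either WT Tconv array. Prim1, the catalytic primase subunit, fell by 1.13 in WT Treg and 0.54 in Foxp3-KO against WT Tconv, and Pola1, the catalytic subunit of polymerase alpha, by 0.89 and 0.42. Both Foxp3-KO calls were lost without either WT Tconv array, and that of Pola1 without 5 other arrays too.

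In WT Treg against WT Tconv the clamp and Okazaki group had the smallest of the 4 role medians given above. Pcna, the sliding clamp, had 5.35 and 5.36 in Nr4a-TKO, 5.32 and 5.29 in Foxp3-KO, 4.72 and 4.78 in WT Treg and 5.50 and 5.49 in WT Tconv, so only WT Treg stood well away from the rest. Foxp3-KO exceeded WT Treg in Pcna by 0.56 ± 0.06 (adjusted p = 0.0137, lost without either WT Tconv or either WT Treg array). Lig1 had 4.34 and 4.40 in Nr4a-TKO, 3.72 and 3.70 in Foxp3-KO, 3.37 and 3.38 in WT Treg and 3.91 and 3.91 in WT Tconv. Its 4 groups were separate, with Nr4a-TKO above WT Tconv by 0.46 ± 0.06 (adjusted p = 0.00393) and above WT Treg by 0.99 ± 0.06 (adjusted p = 0.000774). The clamp loader genes Rfc3, Rfc4 and Rfc5 fell in WT Treg against WT Tconv by 0.46, 0.56 and 0.54, of which the Rfc3 and Rfc5 calls were lost without either WT Tconv array and that of Rfc3 without WT Treg replicate 1 too, while Rfc2 (-0.21 ± 0.07) and the single-strand binding subunit Rpa2 (-0.29 ± 0.10) were not called.

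Genes of nucleotide supply ranged from Rrm2, called in 5 comparisons, to Tyms, called in none. Rrm2, the small subunit of ribonucleotide reductase made in S phase, had 4.44 and 4.30 in Nr4a-TKO, 3.72 and 3.80 in Foxp3-KO, 2.47 and 2.52 in WT Treg and 3.99 and 4.03 in WT Tconv. WT Treg stood more than 1 unit below every other array. Rrm2 rose in Nr4a-TKO (1.87 ± 0.08, adjusted p = 0.000398) and Foxp3-KO (1.27 ± 0.08, adjusted p = 0.00422) against WT Treg and fell in WT Treg against WT Tconv (-1.51 ± 0.08, adjusted p = 0.00035). Rrm1, the large subunit, moved less, at 1.04 ± 0.07, 0.59 ± 0.07 and -0.87 ± 0.07 in the same 3 comparisons. Dut, the enzyme that removes dUTP, followed Rrm2 at smaller size, with 1.28 ± 0.08, 0.60 ± 0.08 and -0.85 ± 0.08. The Foxp3-KO calls of Rrm1 and Dut were lost without either WT Tconv or either WT Treg array.

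Tk1, the thymidine salvage kinase of S phase, was set apart by a high level in Nr4a-TKO alone. It had 2.95 and 2.99 in Nr4a-TKO, 2.03 and 1.95 in Foxp3-KO, 2.09 and 1.89 in WT Treg and 2.15 and 2.19 in WT Tconv. Foxp3-KO and WT Treg overlapped, WT Tconv lay just above them, and both Nr4a-TKO arrays were higher than all 6 others. Nr4a-TKO exceeded WT Tconv by 0.80 ± 0.09 (1.74-fold, adjusted p = 0.00215), WT Treg by 0.97 ± 0.09 (adjusted p = 0.00182) and Foxp3-KO by 0.98 ± 0.09 (adjusted p = 0.0023), and each call held with every array left out in turn. WT Treg and WT Tconv differed by -0.18 ± 0.09 (adjusted p = 0.181).

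Tyms, thymidylate synthase, was the only tested gene with no call in any of the 6 comparisons. Its levels were -1.95 and -1.84 in Nr4a-TKO, -2.17 and -1.95 in Foxp3-KO, -2.36 and -2.04 in WT Treg and -1.82 and -1.67 in WT Tconv. WT Tconv lay above the rest and the other groups overlapped. The widest difference, WT Treg against WT Tconv, was -0.46 ± 0.14 (adjusted p = 0.0563).

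**Figure D3:**
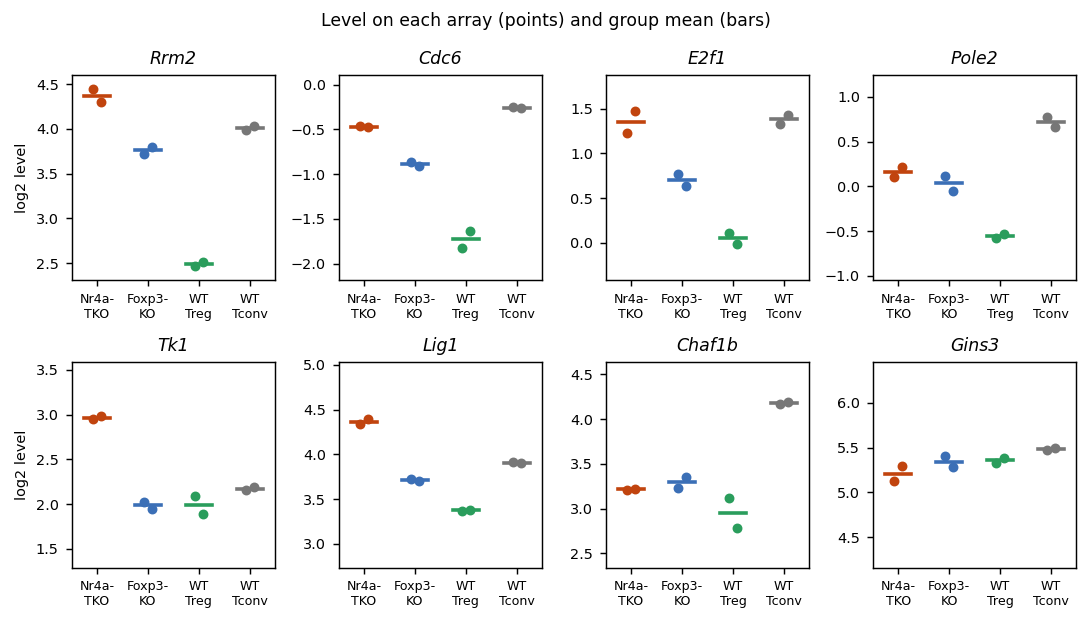
Log2 level (y axis, the same span of 2.3 units in every panel) of 8 genes on each array as points, with group means as bars, for Nr4a-TKO preTreg, Foxp3-KO preTreg, WT Treg and WT Tconv. Rrm2, Cdc6, E2f1 and Lig1 are lowest in WT Treg, Tk1 is high in Nr4a-TKO alone, Chaf1b is high in WT Tconv alone and Gins3 is nearly level.

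Both G1/S regulators that could be tested were called in most comparisons. E2f1, the activating E2F, had 1.23 and 1.48 in Nr4a-TKO, 0.77 and 0.64 in Foxp3-KO, 0.11 and -0.01 in WT Treg and 1.33 and 1.43 in WT Tconv. Nr4a-TKO and WT Tconv overlapped, Foxp3-KO lay below them and WT Treg lower still. E2f1 fell in WT Treg against WT Tconv (-1.33 ± 0.11, adjusted p = 0.00127) and rose in Nr4a-TKO against WT Treg (1.30 ± 0.11, adjusted p = 0.00155), while Nr4a-TKO and WT Tconv differed by -0.03 ± 0.11 (adjusted p = 0.856).

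Ccne1, the cyclin that activates Cdk2 at the start of S phase, was called in all 6 comparisons by its brighter probe. It had 2.58 and 2.64 in Nr4a-TKO, 2.20 and 2.27 in Foxp3-KO, 1.91 and 1.85 in WT Treg and 2.97 and 2.91 in WT Tconv, 4 pairs without overlap. Against WT Tconv it was lower in Nr4a-TKO (-0.33 ± 0.07, adjusted p = 0.0151), in Foxp3-KO (-0.70 ± 0.07, adjusted p = 0.00395) and in WT Treg (-1.06 ± 0.07, adjusted p = 0.000629). The Nr4a-TKO call was lost without either WT Tconv array and without Nr4a-TKO replicate 1, and that of Foxp3-KO against WT Treg (0.36 ± 0.07, adjusted p = 0.0485) with any of the 8 arrays left out. A second, dimmer Ccne1 probe gave smaller differences, -0.25 ± 0.10, -0.47 ± 0.10 and -0.52 ± 0.10, and was called only in Foxp3-KO and WT Treg against WT Tconv, not in the other 4 comparisons.

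The 2 large subunits of CAF-1, which places histones behind the fork, had different patterns over the groups. Chaf1a followed the main order, with 1.11 and 1.48 in Nr4a-TKO, 0.49 and 0.61 in Foxp3-KO, 0.09 and -0.17 in WT Treg and 1.16 and 1.21 in WT Tconv. Nr4a-TKO spanned WT Tconv, and Chaf1a was higher in Nr4a-TKO than WT Treg by 1.33 ± 0.15 (adjusted p = 0.00328). Chaf1b had 3.21 and 3.22 in Nr4a-TKO, 3.23 and 3.36 in Foxp3-KO, 3.12 and 2.79 in WT Treg and 4.17 and 4.19 in WT Tconv. Both WT Tconv arrays stood clear of the other 6. Chaf1b fell in Nr4a-TKO (-0.97 ± 0.12, adjusted p = 0.00296), Foxp3-KO (-0.89 ± 0.12, adjusted p = 0.00924) and WT Treg (-1.23 ± 0.12, adjusted p = 0.00201) against WT Tconv, and a second probe gave -0.95 ± 0.12, -0.90 ± 0.12 and -1.27 ± 0.12. The Foxp3-KO call was lost without either WT Tconv array. Nr4a-TKO and WT Treg differed in Chaf1b by 0.26 ± 0.12 (adjusted p = 0.151). Slbp, which binds the histone mRNA stem loop, was called by its brighter probe only in Nr4a-TKO against WT Treg (0.45 ± 0.09, adjusted p = 0.0161). That call was lost without Nr4a-TKO replicate 2 or WT Treg replicate 1. A second, dimmer Slbp probe gave 0.51 ± 0.17 there (adjusted p = 0.0675, not called). In Foxp3-KO against WT Tconv the brighter probe gave 0.06 ± 0.09 and the dimmer one -0.23 ± 0.17, neither called.

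Genes of replication outside the list, 46 in all, were called in both directions in some comparisons. In WT Treg against WT Tconv 29 fell and 1 rose with a median of -0.51, in Nr4a-TKO against WT Treg 30 rose and 3 fell with a median of 0.53, and in Foxp3-KO against WT Treg 12 rose and 0 fell with a median of 0.32. Of all genes tested, 20.9% were called lower in the first of these comparisons, and 18.5% and 3.33% higher in the others. Uhrf1, which recruits maintenance methylation, and the histone chaperone Asf1b differed by -1.27 and -1.60 in WT Treg against WT Tconv (both called). Orc4 (-0.49 ± 0.13) and Mcm9 (-0.45 ± 0.12) fell in Nr4a-TKO against WT Treg, calls lost without any 1 of the Nr4a-TKO, WT Treg or WT Tconv arrays. Pold4, the small accessory subunit of polymerase delta, fell there too, a call lost without Nr4a-TKO replicate 2 or any 1 of the WT Treg and WT Tconv arrays, and was the 1 gene higher in WT Treg than in WT Tconv. It had 1.74 and 1.54 in Nr4a-TKO, 1.72 and 1.68 in Foxp3-KO, 1.94 and 2.04 in WT Treg and 1.01 and 1.02 in WT Tconv. Pold4 was thus lowest in WT Tconv, and rose in WT Treg by 0.98 ± 0.09 (adjusted p = 0.00167).

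The 19 tested G2/M genes are given beside them. In WT Treg against WT Tconv 18 fell and 0 rose with a median of -1.27, and in Nr4a-TKO against WT Treg 18 rose and 0 fell with a median of 1.31. Of all genes tested, 20.9% were called lower in the first comparison and 18.5% higher in the second. Ttk was not well above background in WT Treg or Foxp3-KO. Its level in WT Treg was at least 1.70-fold below WT Tconv and at least 1.59-fold below Nr4a-TKO. In Foxp3-KO against WT Tconv 4 fell and 0 rose, where 14.8% of all genes tested were called lower. The median was -0.25 and the differences ran from -0.61 to 0.25. The replication genes had medians of -0.32 there and -0.75 in WT Treg against WT Tconv. In Foxp3-KO against WT Treg 17 of 19 G2/M genes rose with a median of 1.07, where the replication genes had 0.35. Of all genes tested, 3.33% were called higher there. How many of the G2/M calls held with each array left out was not counted. Whether the lists differ was not tested. Ccnb1, the mitotic cyclin, had 1.86 and 1.83 in Nr4a-TKO, 1.47 and 1.48 in Foxp3-KO, 0.35 and 0.29 in WT Treg and 1.54 and 1.56 in WT Tconv. Foxp3-KO thus lay just under WT Tconv, and differed from WT Treg by 1.15 ± 0.06 (adjusted p = 0.00298).

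**Figure D4:**
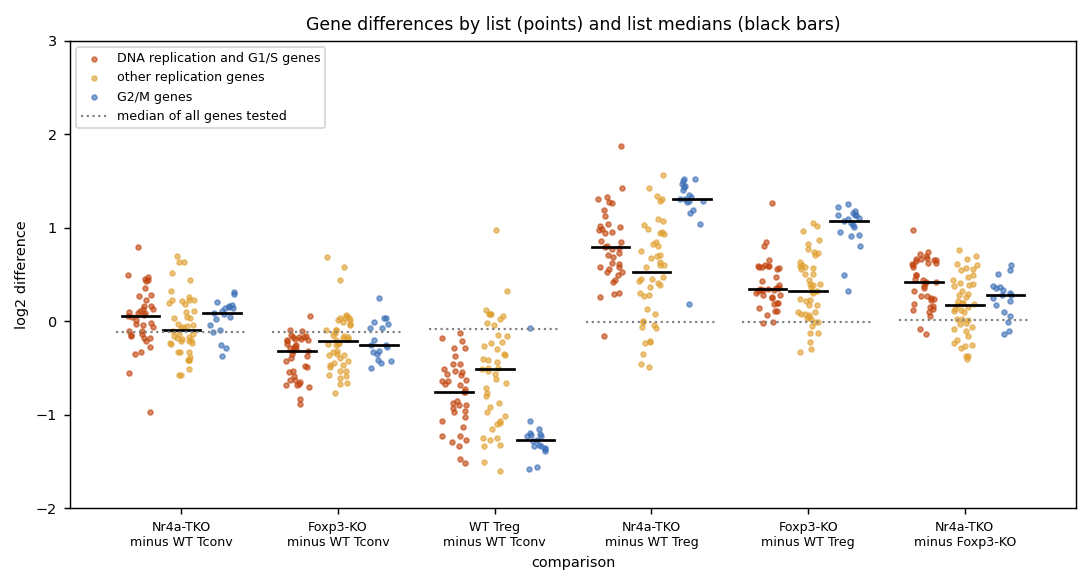
Log2 difference of each gene (points) in the 6 comparisons for the replication and G1/S genes, the 46 other replication genes and the G2/M genes, with list medians as black bars and the median of all genes tested as dotted lines. Genes below background in only a single group of a comparison are not drawn but count in the medians. Ttk, below background in both groups of Foxp3-KO minus WT Treg, is drawn there. In that comparison the G2/M median is 1.07 and the replication median 0.35.

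Of 35 other genes of G1/S control, 15 rose and 6 fell in Nr4a-TKO against WT Treg (median 0.23), and 7 rose and 17 fell in WT Treg against WT Tconv (median -0.34). Of all genes tested, 18.5% rose and 16.4% fell in the first comparison, and 13.8% rose and 20.9% fell in the second. Inhibitors of cyclin-dependent kinases went in both directions in Nr4a-TKO. Cdkn1a, which encodes p21, had 1.04 and 0.91 in Nr4a-TKO, -2.28 and -2.45 in Foxp3-KO and -2.68 and -3.35 in WT Treg, and was not well above background in WT Tconv. It was at least 63.4-fold higher in Nr4a-TKO than in WT Tconv (adjusted p = 0.000181), and 3.99 ± 0.27 log2 units higher than in WT Treg (adjusted p = 0.00082). Both Nr4a-TKO arrays were thus far above all others. Cdkn2b, which encodes p15, was at least 46.0-fold higher in Nr4a-TKO than in WT Tconv (adjusted p = 0.00414) and at least 28.9-fold higher than in WT Treg (adjusted p = 0.00623). Cdkn2a, which encodes p16 and p19Arf, had 0.14 and -0.17 in Nr4a-TKO and -3.26 and -3.19 in WT Tconv, a difference of 3.21 ± 0.28 (adjusted p = 0.00112), and Cdkn2c, which encodes p18, was higher by 0.97 ± 0.17 (adjusted p = 0.00752). Cdk6, the kinase that the p15, p16 and p18 proteins bind, was also higher in Nr4a-TKO than in WT Tconv, by 2.16 ± 0.18 (adjusted p = 0.000964). Other inhibitors fell in Nr4a-TKO against WT Treg, Cdkn1b (p27) by 0.47, Cdkn1c (p57) by 0.63 and Cdkn2d (p19) by 0.46, each call being lost without Nr4a-TKO replicate 1, that of Cdkn1b also without WT Treg replicate 2 and that of Cdkn2d also without WT Treg replicate 1. Against WT Tconv, Cdkn2d fell by 0.61 in Nr4a-TKO (-0.61 ± 0.10, adjusted p = 0.00583).

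Other genes of the list were called against WT Tconv in several groups. Myb, a transcription factor of immature and dividing blood cells, was higher than in WT Tconv in Nr4a-TKO (1.66 ± 0.11), Foxp3-KO (1.94 ± 0.11) and WT Treg (1.54 ± 0.11), all called. Rb1, the pocket protein that holds E2F back, rose in Foxp3-KO (0.73 ± 0.08, lost without either WT Tconv array) and WT Treg (0.87 ± 0.08) against WT Tconv, and in Nr4a-TKO its difference was 0.03 ± 0.08 (adjusted p = 0.752). Cks1b, a partner of cyclin-dependent kinases, fell in WT Treg by 1.74 and rose in Nr4a-TKO against WT Treg by 1.24.

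Among 14 genes linked to quiescence of T cells, 7 were lower and 1 higher in Nr4a-TKO than in WT Treg, with a median of -0.57. Of all genes tested, 16.4% were called lower and 18.5% higher there. Klf2, which restrains T cell division, had 4.71 and 4.74 in Nr4a-TKO, 5.54 and 5.55 in Foxp3-KO, 5.90 and 6.01 in WT Treg and 5.71 and 5.66 in WT Tconv. Nr4a-TKO was lowest without overlap, by 0.96 on the log2 scale against WT Tconv (-0.96 ± 0.07, adjusted p = 0.000763). Of all genes tested, 27.6% were called lower and 21.1% higher in Nr4a-TKO against WT Tconv. Foxo1 (-0.76 ± 0.11) and Foxp1 (-0.94 ± 0.11) fell in that comparison. There 5 of the 14 genes were lower and 2 higher, counts near those shares. The higher ones were Klf6, a related zinc finger factor (1.59 ± 0.17, adjusted p = 0.00187), and Slfn2 (0.35 ± 0.12, adjusted p = 0.0494), whose call was lost without any 1 array other than Nr4a-TKO replicate 1. Il7r, the receptor of the survival cytokine IL-7, was the 1 gene that rose in Nr4a-TKO against WT Treg (1.89 ± 0.25, adjusted p = 0.00496), and was lower than WT Tconv in Foxp3-KO (lost without either WT Tconv array) and WT Treg.

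Markers of other cells moved with the groups. The summed linear level of 12 markers of double-positive and immature thymocytes was 15.8 to 19.0 in Nr4a-TKO, 34.4 to 54.4 in Foxp3-KO, 13.5 to 16.1 in WT Treg and 82.6 to 83.4 in WT Tconv, with 9 or 10, 12, 11 and 12 of them above background. A sum weighs its brightest probes most. By gene, 1 of these 12 was called higher and 7 lower in Nr4a-TKO, 1 higher and 0 lower in Foxp3-KO (median log2 difference 0.03), and 0 higher and 7 lower in WT Treg, each against WT Tconv. The sum of 7 B cell markers was 14.1 to 57.1, 3.45 to 16.7, 2.98 to 4.26 and 1.08 to 1.18 in the same groups, and that of 9 myeloid and dendritic markers was 77.7 to 96.1, 60.3 to 94.4, 50.4 to 61.6 and 46.8 to 49.6. In Nr4a-TKO, Foxp3-KO and WT Treg alike, replicate 1 had the higher value of both sums. Against WT Tconv, 6 of 6 tested B cell markers were called higher in Nr4a-TKO, 1 in Foxp3-KO and 0 in WT Treg. Of the 9 myeloid and dendritic markers, 8 were called higher and 1 lower in Nr4a-TKO (median 7.28-fold higher), 5 higher and 0 lower in Foxp3-KO (median 4.92-fold higher) and 2 higher and 0 lower in WT Treg. Among all genes tested, the shares called higher against WT Tconv were 21.1%, 10.3% and 13.8% in these groups. Those called lower were 27.6%, 14.8% and 20.9%. At most 2 of 5 red cell and 3 of 7 stromal markers were above background on any array. The part of these cells in the levels of the replication genes was not tested.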

How the data were processed

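The data are intensities of 8 one-colour Agilent arrays. Image extraction used Agilent Feature Extraction 10.7.1.1, per the submitters' processing notes, giving a background-subtracted processed Cy3 intensity per spot, per the file headers. The matrix of linear intensity that the authors deposited, a constant multiple of these values on each array, was an alternative. Control spots (3671 of 62976) and flagged spots were left out and 0 spots were saturated. From the log2 of each value the 75th percentile of its array was subtracted, and the brightest probe per gene was kept. Symbols were taken through RefSeq accessions. Genes well above background on both arrays of at least 1 group were tested. A single limma model (version 3.58.1, R 4.3.3) held all 4 groups (lmFit, eBayes without trend; 4 residual and 1.6 prior degrees of freedom), a procedure tested on simulated data. Genes described in full are, per role, the one with the largest difference and the one with the smallest adjusted p, those called against the direction of most, and those never called; others are examples. A bound ("at least") sets a group's mean against the lowest signal well above background on the other group's arrays. The genes and lists were chosen with earlier results of these data known. Alternatives were quantile and median scaling, normexp with an offset of 50, the deposited matrix, other filters, the mean of a gene's probes, an intensity trend, array weights, only the groups compared, a replicate block and leaving out each array. Figures were drawn with matplotlib 3.10.9.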

Additional observations from a re-analysis of the deposited data

How the results depend on the processing

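No called difference of a named gene turned round under any alternative that was run. Counts of called genes were within 1.5 times those reported under quantile scaling, normexp, the deposited matrix, the mean of probes, the intensity trend and the filter to genes above background on all arrays. Scaling on the median moved the median of all genes against WT Tconv to -0.17 in Nr4a-TKO (-0.11 reported), -0.25 in Foxp3-KO (-0.11) and -0.23 in WT Treg (-0.08). With it the median of the 39 genes was -0.0050 in Nr4a-TKO, -0.46 in Foxp3-KO (33 lower) and -0.90 in WT Treg against WT Tconv, 0.88 in Nr4a-TKO against WT Treg and 0.51 in Nr4a-TKO against Foxp3-KO. The share of all calls that were higher was then 22.6% for Foxp3-KO (41.0% reported) and 25.8% for WT Treg (39.8%) against WT Tconv, and 67.1% (53.0%) and 66.7% (53.2%) for Nr4a-TKO against WT Treg and Foxp3-KO. The WT Treg median was -0.69 under quantile scaling and -0.69 under normexp. In Foxp3-KO against WT Tconv 12 genes were lower without a filter, 12 with array weights and 10 with only both groups in the fit. In Foxp3-KO against WT Treg 5, 6 and 0 were higher under these 3 settings, where limma gave 25 at an unadjusted p below 0.05 in the last, and 2 were higher in Nr4a-TKO against Foxp3-KO with only both groups. Deviations of same-numbered samples correlated at r = 0.26, 0.15 and 0.19 among Nr4a-TKO, Foxp3-KO and WT Treg and at -0.03 to -0.01 with WT Tconv, so the numbers were not taken to pair the samples of all 4 groups; with the replicate block 8 genes were higher in Foxp3-KO against WT Treg (14 reported).

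With each array left out in turn, Nr4a-TKO against WT Tconv gave 4 to 7 higher, 1 to 5 lower and a median of -0.079 to 0.0947. Foxp3-KO against WT Tconv gave 2 to 16 lower (median -0.34 to -0.29) and WT Treg 25 to 32 lower (median -0.77 to -0.74). Nr4a-TKO against WT Treg gave 29 to 36 higher (median 0.76 to 0.85), Foxp3-KO against WT Treg 2 to 9 (0.35 to 0.36), and Nr4a-TKO against Foxp3-KO 16 to 23 (0.36 to 0.50). A group reduced to 1 array is assumed to vary like the others. Dim signal limits Orc1 in WT Treg and Ccne2 everywhere.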
